A study of Mus musculus with 48 samples.

Results

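Cacna1d, Kcna1 and Unc80 encode parts of 3 neuronal ion channels whose transcripts are recoded by adenosine-to-inosine (A-to-I) editing. All positions that the editing tables assign to these genes were taken, 85 of 48715, of which 45 lie in Unc80, 22 in Cacna1d and 18 in Kcna1. Editing was measured by mmPCR-seq, in which cDNA around known sites is amplified by multiplexed PCR in a microfluidic chip and sequenced, and the editing level is the share of reads that carry G where the genome has A. There were 48 libraries, 3 for each of 2 genotypes in each of 8 tissues: whole brain, heart, kidney, liver, small intestine, spleen, thymus and bone marrow (BM). RNA came from homogenised tissue of male C57BL/6 mice of 12 weeks.

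One genotype was Adar1+/+ Ifih1-/- (WT) and the other Adar1E861A/E861A Ifih1-/- (E861A), in which the germline E861A substitution removes the catalytic activity of ADAR1 in every cell. Both lack Ifih1, which encodes the double-stranded RNA sensor MDA5, so a mouse with intact Ifih1 was not part of the comparison, and the labels list no change of Adarb1, the gene of ADAR2. The replicates were described as independent and biological. The labels and the paper's list of datasets name liver, whereas the tissue list in its mmPCR-seq methods leaves it out. The assay gives no expression level, so the tissues were not checked against marker genes here.

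Inosine is read as guanosine by the ribosome, so editing inside a codon can change the amino acid. Kcna1 encodes a Shaker-type potassium channel, and its edited isoleucine codon belongs to the pore-lining segment, where the change to valine is known to speed recovery from inactivation. Cacna1d encodes the pore of an L-type calcium channel that opens at low voltage, and its edited codons lie in the IQ motif, to which calmodulin binds to inactivate the channel with calcium. Unc80 encodes a large subunit of the complex around the sodium leak channel NALCN, which sets the resting excitability of neurons.

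The edited positions that carry the results are shown with the bases around them, read from NCBIM37, the mouse assembly also called mm9, 5′ to 3′ on the strand of the gene and in capitals where the A is edited.
Kcna1, chr6:126592164-126592188, minus strand: ggtgtgctgacaAttgccctgcccg
Cacna1d, chr14:30879289-30879317, minus strand: ctttcctgatAcAggactActttaggaaa
Unc80, chr1:66719276-66719300, plus strand: cttcttcatctcAgcccttatctct
Unc80, chr1:66718438-66718462, plus strand: tttcaaggtggtAcgtgggagatgc
The Kcna1 window holds the isoleucine-to-valine site (Ile to Val) at position 126592176, the first base of codon 400. The Cacna1d window holds 3 sites in this order, Ile to Met at 30879307, Gln to Arg at 30879305 and Tyr to Cys at 30879299, which are the third base of codon 1632 and the second bases of codons 1633 and 1635 in the longest annotated transcript. The first Unc80 window holds Ser to Gly at 66719288, the first base of codon 2732. The second holds a position, 66718450, that the tables call intronic, whereas the GENCODE M1 annotation places it inside the 3′ UTR, from 66715872 to 66718654, of a shorter Unc80 transcript. A stretch of 21 bases around each of these sites, with A or G at the site, matched the genome once.

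Coverage required over 100 reads in 2 or more WT libraries and 2 or more E861A libraries of the tissue, and a covered site was called edited where the pooled level of the covered replicates was above 1% in either genotype. Some library passed 100 reads at 55 of the 85 positions, and no library did at the other 30. In brain 51 positions were covered and 7 were edited, 3 in Cacna1d, 1 in Kcna1 and 3 in Unc80. In the other tissues between 13 and 33 positions were covered, and 1 was edited in each of kidney, small intestine and heart and 0 in the other 4 tissues. No site of the 3 genes therefore entered the genotype test there, in which limma called 27.0% of all tested sites in BM, 9.15% in spleen, 0% in thymus and 9.75% in liver. These shares turned on single libraries: with 1 library left out the number called ran from 16 to 79 in spleen, 0 to 223 in thymus and 15 to 123 in liver, the highest without WT replicate 3 in spleen and thymus and WT replicate 1 in liver, and in BM it was as low as 64 of 205, without WT replicate 1. Counted over all tissues, 9 positions were edited, 3 in Cacna1d, 2 in Kcna1 and 4 in Unc80. Of the positions covered in all 6 brain libraries, 44 stayed at or below the limit: their median level was 0.132%, and the highest single value was 1.33%, at a Kcna1 glutamate codon.

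Across the series the summed coverage of a library ranged from 1861831 to 11394093 reads, the number of positions over 100 reads from 1949 to 6806, and the median coverage of those positions from 559 to 1710 reads. PCR reads without molecular identifiers are not independent molecules, so the 95% Wilson intervals given here cover counting error only. For the 28 brain values of at least 5% in the 3 genes, these intervals were 2.21 to 5.50 percentage points wide.

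In brain, 4 recoding sites of the 3 channels had mean levels from 21.6% to 48.3% in both genotypes. The Kcna1 Ile to Val level was 19.4%, 41.5% and 44.8% in WT and 53.2%, 46.1% and 45.7% in E861A, at 3608 to 6216 reads. All 3 E861A libraries were above all 3 WT libraries, and WT replicate 1 was far below the others. The WT mean was 35.2% ± 13.8 and the E861A mean 48.3% ± 4.21 (SD, n = 3 each), a difference of 13.1 percentage points. An exact permutation test of 3 against 3 libraries, two-sided, gave p = 0.1, the smallest it can give. In limma, on log2((level + 0.01)/(1 - level + 0.01)), the scale of all log2 changes here, the change was 0.83 (SE 0.65), with an adjusted p of 0.701 over all 808 sites edited in brain. Without WT replicate 1 the limma change was 0.30, with an adjusted p of 0.757.

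The Cacna1d IQ motif held 2 strongly edited sites whose levels overlapped between genotypes. Ile to Met was edited at 38.7%, 41.1% and 38.6% in WT and 45.0%, 39.5% and 34.0% in E861A. Both means were 39.5%, with an SD of 1.39 in WT and 5.49 in E861A (n = 3 each). The E861A values lay on both sides of the WT values, and the limma adjusted p was 0.999. In a separate limma fit of untransformed levels, the 95% interval of the difference ran from -21.7 to 21.7 percentage points.

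The Tyr to Cys site, 8 bases downstream, was edited at 28.4%, 16.2% and 22.0% in WT and 24.5%, 20.5% and 22.2% in E861A. All 3 E861A values lay inside the WT range, the means were 22.2% ± 6.10 and 22.4% ± 2.03 (SD, n = 3 each), and the limma adjusted p was 0.991. In each of the 6 brain libraries Ile to Met was edited more than Tyr to Cys, by 10.3 to 24.9 percentage points, a ratio of 1.36 to 2.54. The 2 levels come from the same amplicon and the same mice.

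Between them, only 2 bases from the Ile to Met site, the glutamine codon was barely edited. Gln to Arg had 0.0677%, 0.554% and 1.88% in WT and 2.27%, 0.271% and 1.69% in E861A, at 1477 to 1861 reads. The groups overlapped, and the limma adjusted p was 0.791. The 3 edited adenosines of the motif, which holds others as well, were read as G at levels from 0.0677% to 45.0% in the same 6 libraries.

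Unc80 Ser to Gly had lower values in E861A brain, without passing the test. Its level was 48.4%, 32.1% and 27.4% in WT and 22.5%, 18.8% and 23.4% in E861A, at 1265 to 2573 reads. The E861A range ended below the lowest WT value. The mean was 36.0% ± 11.0 in WT and 21.6% ± 2.43 in E861A (SD, n = 3 each), 14.4 percentage points apart, and the exact permutation p was 0.1. The limma change was -0.98 (SE 0.59, log2), with an adjusted p of 0.701, so it did not pass the threshold of 0.05. It did pass the criterion of the study's methods, an unadjusted one-way test at 0.1 together with a difference of at least 5 percentage points, which 7.80% of all 808 sites passed. Without WT replicate 1 the limma change was -0.61, with an adjusted p of 0.667.

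A silent site of Unc80, Arg to Arg at 66720620 in codon 2774, was edited at 0.324%, 2.67% and 1.27% in WT and 0.119%, 0.0895% and 0.165% in E861A. All 3 E861A values were below the WT values and came from 1 edited read in each library, of 605 to 1117 reads. The difference was -1.29 percentage points, with a limma adjusted p of 0.701. Without WT replicate 2 the site did not pass the limit on the level and was not tested. This site lies in a separate stretch of positions, and the bases around it were:
Unc80, chr1:66720608-66720632, plus strand: caatcaagagcgAagggaggggatg

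The Unc80 position at 66718450 varied more between WT libraries than the other 6 channel sites edited in brain. Its level was 0.406%, 0.198% and 32.7% in WT and 20.6%, 8.41% and 9.31% in E861A, at 1517 to 2672 reads. WT replicate 3 stood above all E861A libraries and the other WT libraries stood below all of them. The limma change was 1.74 (SE 1.56, log2), with an adjusted p of 0.701. Without WT replicate 3 it was 3.49, with an adjusted p of 0.0917. Levels of over 5% in 1 library with both partners under 1% were found at 72 of 3022 positions in brain WT replicate 3, against 20 in replicate 1 and 33 in replicate 2.

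**Figure D1:**
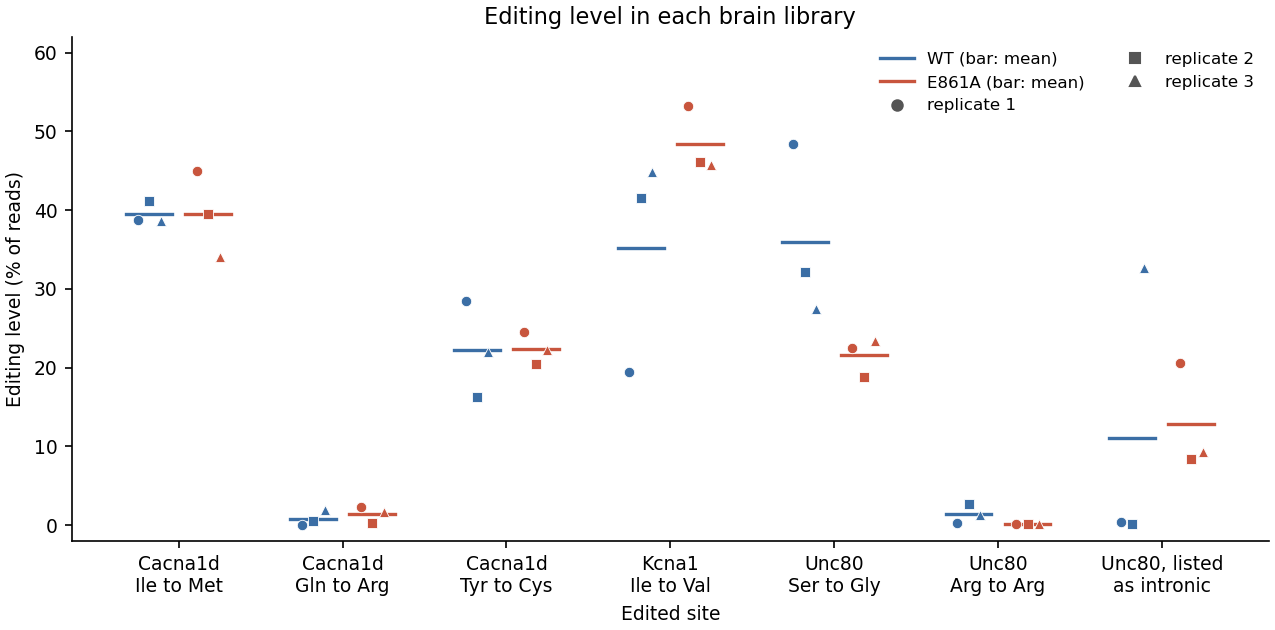
Editing level (percent of reads) in each of the 6 brain libraries at the 7 edited sites of Cacna1d, Kcna1 and Unc80; points are libraries, with the replicate number as the symbol, and bars are means of WT (blue) and E861A (red). Kcna1 Ile to Val was higher in all E861A libraries, Unc80 Ser to Gly lower, and the Cacna1d sites overlapped.

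Over the whole brain comparison, limma called 0 of 808 sites, a background of 0%, and 56 sites had an unadjusted p under 0.05. None of the 7 sites of the 3 genes was among those 56. With the spread estimated over all 48 libraries, limma called 217 of the 808 sites, 124 lower and 93 higher, and without WT replicate 3 it called 12 of 624; none of the 7 sites was called in either. A quasi-binomial model of the reads called 1 of 808 sites and 0 of the 7. The groups of 3 libraries did not overlap at 3 of the 7 sites, 2 lower and 1 higher in E861A, against 18.2% of the 631 brain sites with all 6 libraries, 11.6% lower and 6.66% higher. The 7 sites lie in 5 stretches of neighbouring positions.

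Of the 5 recoding sites of the 3 genes edited in brain, 4 lay in the upper part of the edited sites and Cacna1d Gln to Arg in the lower part, at rank 651 of 808 in WT and 525 in E861A. The median WT level over the 808 edited sites was 4.56%, and over the 48 of them that change an amino acid 11.9%. Counted from the highest WT level, Cacna1d Ile to Met ranked 77, Unc80 Ser to Gly 85 and Kcna1 Ile to Val 89 of 808, and 82.1% of the sites lay below Cacna1d Tyr to Cys. In E861A the same order of counting gave 32 for Kcna1, 50 and 104 for the Cacna1d sites and 110 for Unc80 Ser to Gly. The median difference, E861A minus WT, was -0.838 percentage points over all 808 sites and 0.219 over the 7.

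**Figure D2:**
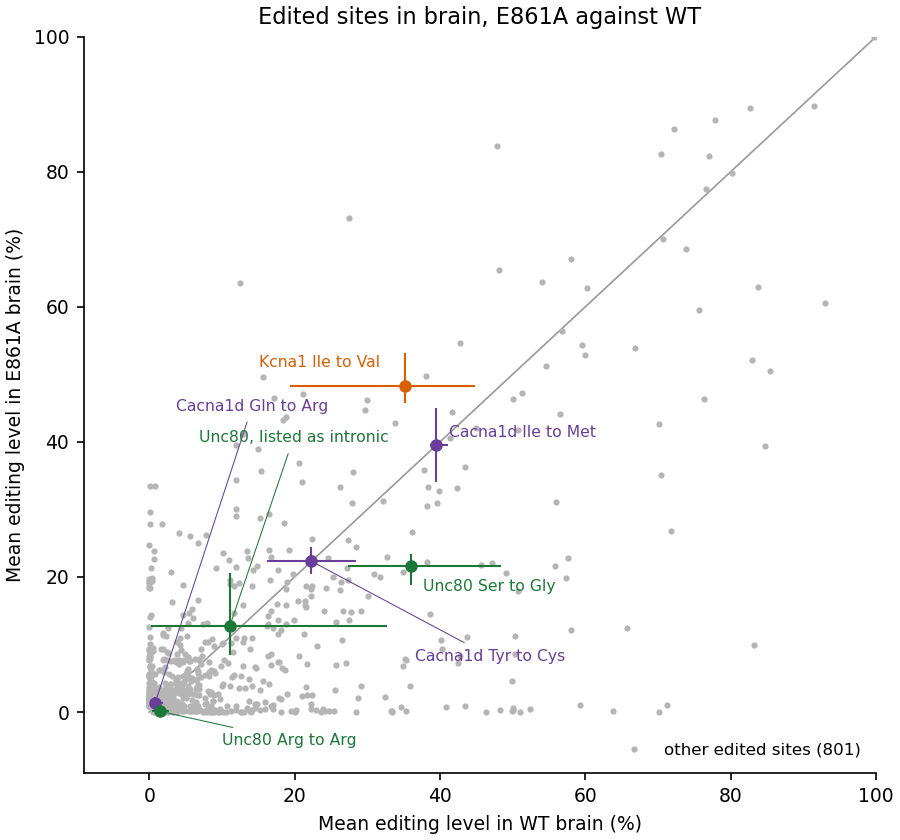
Mean editing level in E861A brain (vertical, percent) against WT brain (horizontal, percent) for 808 edited sites; grey points are the other 801 sites, coloured points the 7 channel sites with the range of their 3 libraries, and the line marks equal levels. Kcna1 Ile to Val (35.2% and 48.3%) lies above the line, both strongly edited Cacna1d sites on it, and Unc80 Ser to Gly (36.0% and 21.6%) below it.

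Outside the brain the strongly edited Kcna1 and Cacna1d adenosines were read almost only as A in most libraries. At Kcna1 Ile to Val, 39 libraries of the other tissues had more than 100 reads, and 37 of them were at 0.516% or lower. In 7 libraries no read was edited, which allowed a level of up to 0.0566% to 1.01% (3 reads of the coverage). At Cacna1d Ile to Met all 31 such libraries were at 0.592% or lower, and at Tyr to Cys all 31 were at 0.5% or lower, with 18 of them at 0. In bulk tissue, fewer cells of a type and less RNA per cell cannot be told apart.

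In WT mice the level outside the brain was compared with that in the brain. In WT spleen the mean Kcna1 Ile to Val level was 0.110% ± 0.0564 and in WT heart 0.0612% ± 0.0819 (SD, n = 3 each), against 35.2% ± 13.8 in WT brain. The log2 change from brain lay between -5.58 and -5.70 in every tissue but liver, where it was -3.62. At Cacna1d the change in BM, thymus, liver and kidney was -5.53 to -6.02 for Ile to Met and -4.57 to -4.76 for Tyr to Cys. Outside the brain the added 0.01 is larger than most levels themselves, so these changes understate the ratio and their likeness between tissues is not a measurement: with 0.001 added, the Kcna1 changes outside liver were -7.98 to -8.78. Each comparison held 3 brain libraries and 3 of the other tissue, except that the Cacna1d sites had 2 WT libraries over 100 reads in BM and in thymus.

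When every covered position was tested, without the limit on the level, limma called 5 tests on the 3 genes over the 7 tissues, all lower than brain and 2.84% of the tests made on their covered positions. They were Kcna1 Ile to Val in spleen (adjusted p 0.0372), thymus (0.0461) and kidney (0.0306), and both strongly edited Cacna1d sites in kidney (0.0295 each). Kcna1 in BM (0.0535), heart (0.0625), small intestine (0.0988) and liver (0.461) did not pass, nor did the Cacna1d sites in BM, thymus and liver (0.0582 to 0.134). The share of all tested positions called lower was 0.315% in BM, 1.85% in spleen, 1.24% in thymus, 0% in liver, 1.26% in kidney, 0% in small intestine and 0.0265% in heart.

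With the limit, 14 of 22 tests on the 3 genes were called lower and 0 higher. The sites called had passed the limit only through the brain, so a lower level elsewhere was set by the limit, and neither this count nor its direction is a result. With the limit, the share of all tested sites called lower than brain was 7.01% in BM, 18.9% in spleen, 12.4% in thymus, 1.11% in liver, 11.3% in kidney, 6.83% in small intestine and 5.03% in heart. These shares turned on single libraries: without WT replicate 2 of the tissue the number called was 56 in spleen and 0 in each other tissue, and in 5 of these it was also 0 without another replicate of the tissue. Without brain WT replicate 1 it was higher in each tissue, for example 19 in liver and 126 in kidney.

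**Figure D3:**
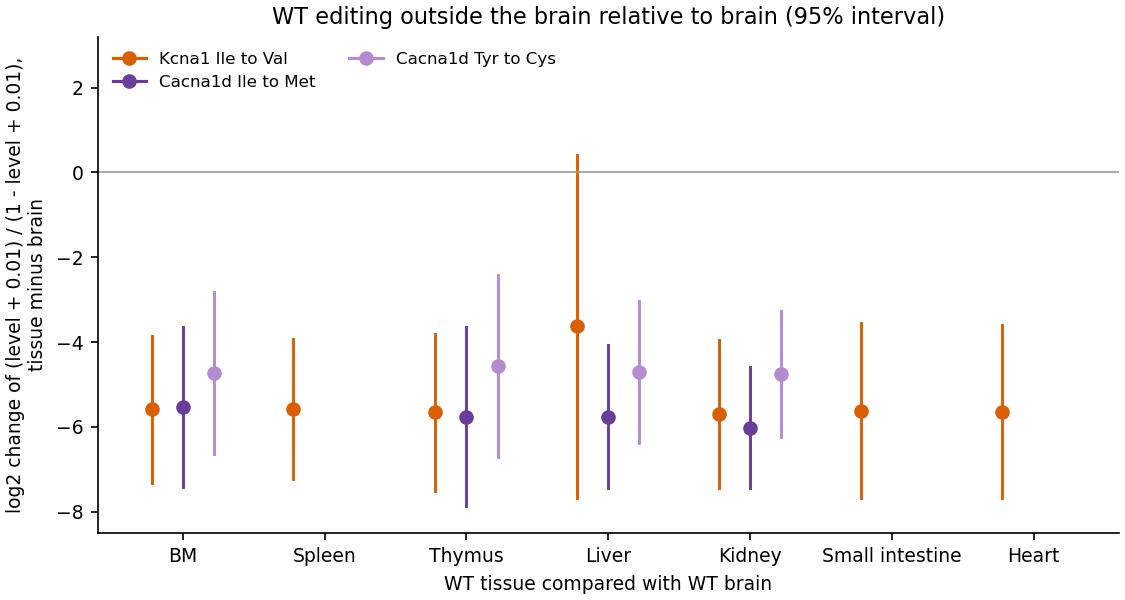
Change of log2((level + 0.01)/(1 - level + 0.01)) in 7 WT tissues relative to WT brain at Kcna1 Ile to Val (orange), Cacna1d Ile to Met (dark purple) and Tyr to Cys (light purple); points are limma estimates, and lines 95% intervals. The added 0.01 holds the values up where the level is near 0. The sites passed the limit on the level through the brain, so points below 0 are no result; the Kcna1 interval in liver runs from -7.67 to 0.42, and tissues without a point did not have enough reads.

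A pair of libraries did not follow the pattern at Kcna1 Ile to Val. In liver, WT replicate 3 was edited at 36.3% of 933 reads (95% Wilson interval 33.3 to 39.5%), while WT replicates 1 and 2 had 1 edited read each of 543 and 615, or 0.184% and 0.163%. In E861A liver only replicate 2 had more than 100 reads, with 0.142% of 1407 edited, so no genotype test was made there. In small intestine, E861A replicate 3 was edited at 33.5% of 1370 reads (31.1 to 36.0%), while E861A replicates 1 and 2 had 0.0518% and 0%, and the WT libraries 0.129%, 0.124% and 0%.

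The limma change in small intestine was 1.81 (SE 1.54, log2), with an adjusted p of 0.559, in a comparison where 0% of 413 sites were called and 2 had an unadjusted p under 0.05. In both libraries 5 other Kcna1 positions had more than 100 reads, and none of them exceeded 0.213% in the liver library and 0.229% in the small intestine library. In that liver library Cacna1d Ile to Met was at 0.339%. The source of these reads was not tested.

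Single libraries of this kind were found throughout the series. Outside the brain, 897 of 66919 pairs of a site and a group had 1 library over 5% with both partners under 1%, and 4 of the 299 pairs in the 3 genes did. The count per library ran from 0 to 120, with a median of 13, and was 39 in liver WT replicate 3 and 12 in small intestine E861A replicate 3. The other 2 pairs in the 3 genes were weaker. In heart, Kcna1 Tyr to Cys at 126592340 (codon 345) was at 10.8% of 1039 reads in WT replicate 2 and at 0.174% and 0.240% in the other WT libraries, and its E861A libraries were at 0.271%, 0% and 0.275% (limma adjusted p 0.566; 0% of 446 sites called, 21 at an unadjusted p under 0.05). In kidney, the Unc80 position 66718568 was at 5.17% of 1315 reads in E861A replicate 3 and at 0.334% or lower in the other 5 libraries (limma adjusted p 0.509; 17.1% of 532 sites called, and 55 of 469 to 200 of 542 with 1 library left out, the highest without WT replicate 3). Each of these 4 values rests on 1 library.

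**Figure D4:**
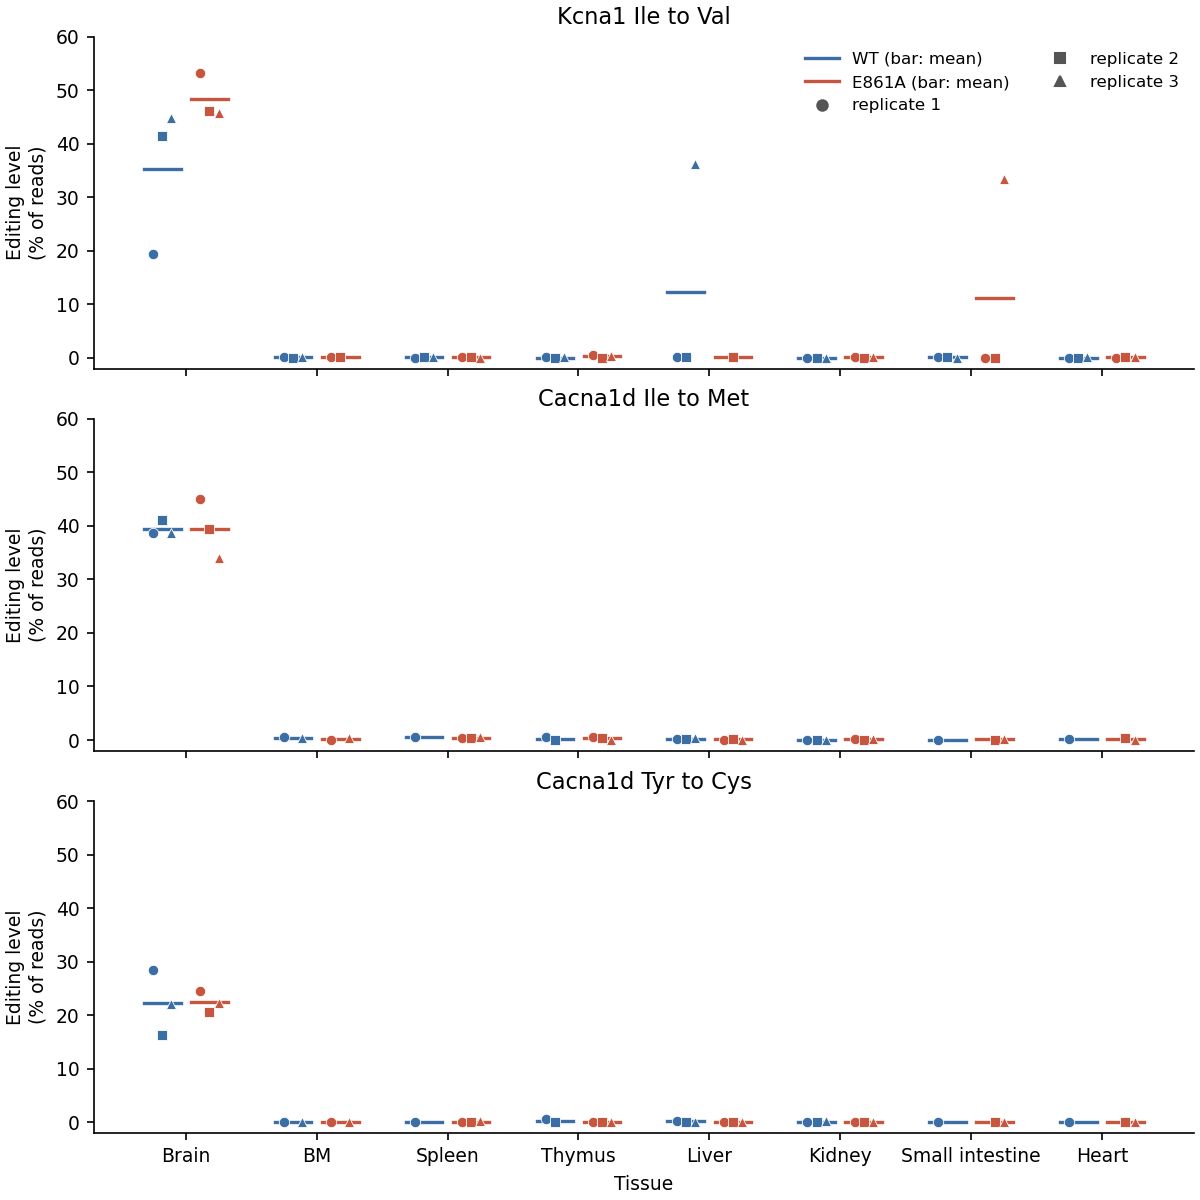
Editing level (percent of reads) of 3 recoding sites in every library with more than 100 reads, by tissue; points are libraries, with the replicate number as the symbol, and bars are means of WT (blue) and E861A (red). Only the brain libraries are high, except for 1 WT liver library at 36.3% and 1 E861A small intestine library at 33.5% at Kcna1.

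Whether the genotype difference in brain itself differed from that in another tissue was asked with an interaction contrast over 12 libraries. Of 26 tests on sites of the 3 genes, limma called 0, with adjusted p from 0.630 to 0.983. The quasi-binomial model was not run for this contrast, and 0 of the 26 had an unadjusted p under 0.05. Among all sites tested the share called was 2.99% for BM, 1.77% for spleen, 0.454% for thymus, 1.41% for liver, 1.76% for kidney, 0.492% for small intestine and 0.231% for heart. With 1 library left out, the number called fell to 1 for spleen and to 0 for each other tissue, and rose to between 15 for heart and 50 for BM. For Kcna1 Ile to Val the difference, other tissue minus brain, ran from -13.1 to -1.98 percentage points, and its interval in spleen was -2.34 to 0.74 on the log2 scale. In small intestine the tested log2 change was 0.97 (SE 1.84), opposite in sign to the -1.98 percentage points there. Without brain WT replicate 3 the Unc80 position 66718450 was called in 6 of the tissues. Its changes ran from -3.34 to -3.69 (log2), with limma adjusted p from 0.00811 to 0.0453. These 6 contrasts share the same brain libraries, so they are not independent. In the same setting the share of all sites called was higher as well, at 7.40% for BM, 7.04% for spleen, 4.76% for thymus, 3.43% for liver, 6.75% for kidney, 2.53% for small intestine and 2.29% for heart.

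How far the other tissues can be compared with brain depended on the amplified stretch. The Unc80 coding stretch that holds Ser to Gly, 9 positions from 66719265 to 66719355, reached 3570 reads in brain and at most 73 in any library of another tissue. The 7 positions from 66720606 to 66720665, around Arg to Arg, reached 1536 reads in brain and at most 52 elsewhere, so Unc80 recoding was not measurable outside the brain at this depth. The stretch from 66718450 to 66718598, by contrast, had more than 100 reads in every tissue except liver, where no library had more than 2 reads.

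At position 66718450 the 35 libraries of the other tissues over 100 reads were all at 0.648% or lower. In brain WT replicates 1 and 2, at 0.406% and 0.198%, lay in the same range, and the other 4 brain libraries were at 8.41% to 32.7%. The Cacna1d stretch was covered in brain, BM, thymus, liver and kidney, and the Kcna1 stretch in all tissues but liver. Reads at the Kcna1 site in brain, 3608 to 6216, and in heart, 1599 to 3725, were of the same order. Reads over a site were therefore present in tissues where its level stayed near 0, and the number of reads after PCR is not a measure of expression.

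**Figure D5:**
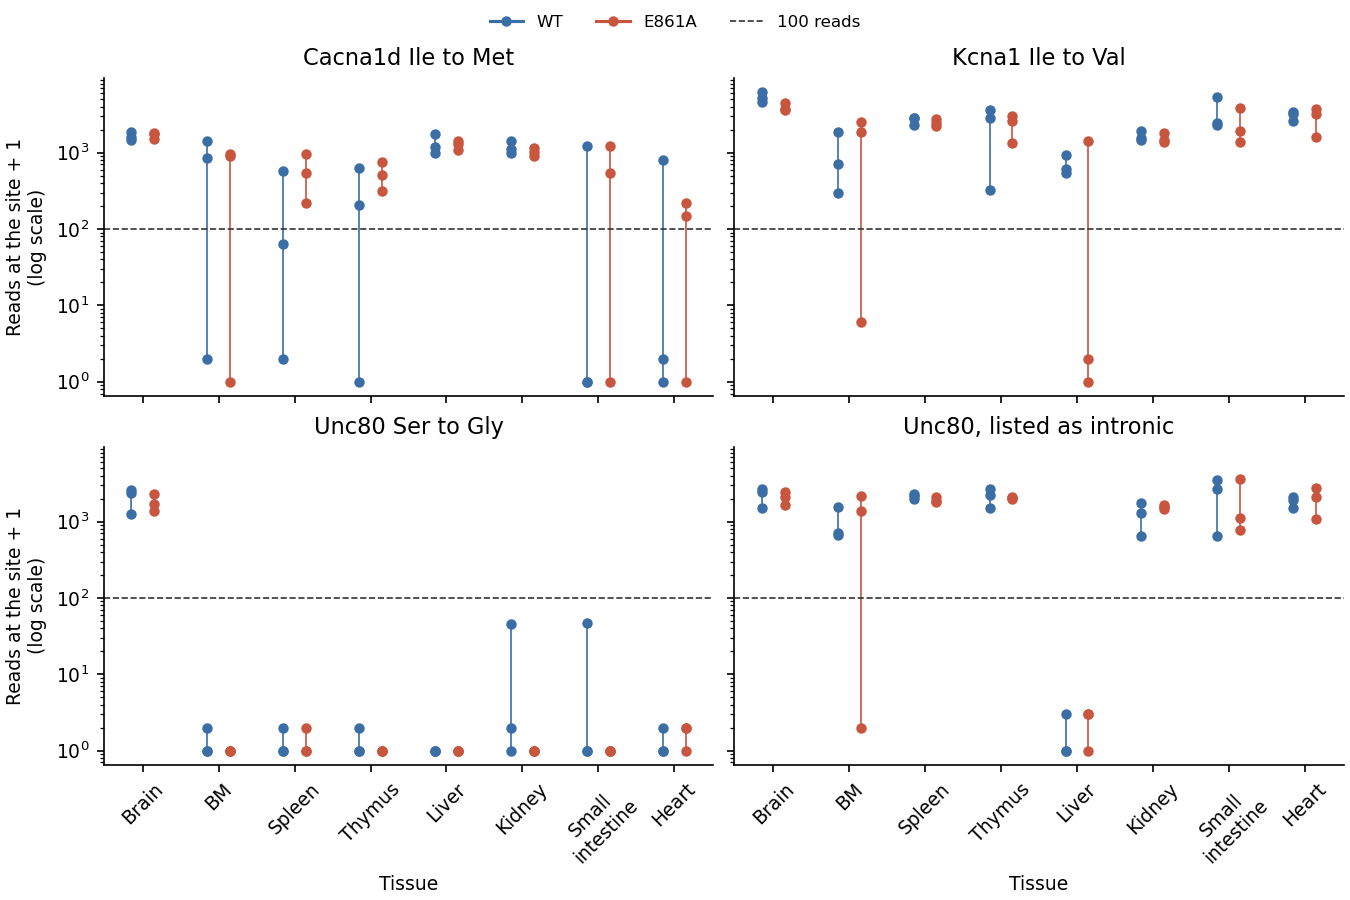
Reads at 4 sites plus 1 (log scale) by tissue; points are the lowest, median and highest of the 3 libraries of WT (blue) and E861A (red), joined by a line, and the dashed line marks 100 reads. Unc80 Ser to Gly passed 100 reads only in brain, whereas Kcna1 and the Unc80 position listed as intronic were read in most tissues.

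The sequence around the sites was compared with that of all 808 sites edited in brain. The base before the site was A, C and T for Kcna1 Ile to Val, Unc80 Ser to Gly and Cacna1d Ile to Met in turn; among the 808 sites it was A in 29.8%, C in 25%, G in 11% and T in 34.2%. Unc80 Ser to Gly was followed by G, as 45.4% of the 808 sites were, Kcna1 Ile to Val by T (15.8%) and Cacna1d Ile to Met by C (18.8%). In a minimum free energy fold of the 401 bases around each site in the genome, 3 of the 7 channel sites were paired, or 42.9%, against 48.9% of the 808 and 56.8% of the 44 covered positions of the same genes that were not edited.

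Kcna1 Ile to Val paired with a U 50 bases upstream in windows of 201, 401 and 801 bases. Unc80 Ser to Gly was paired in the shortest and longest windows and not in the middle one, and Cacna1d Ile to Met and Tyr to Cys were unpaired in all 3. These folds are predictions on genomic sequence and a description only; an editing complementary sequence further away would not be in the window.

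The other ion channel genes listed for comparison gave no edited site in brain. Receptor channels such as Gria2 were not listed. Of a list of 58 other genes of calcium, potassium, sodium, HCN and sodium leak channels, 31 had 411 positions in the tables, and 17 positions were covered in brain, of which 0 were edited. Outside the brain 1 position was edited in thymus, small intestine and heart each, in the calcium channel gene Cacna1g, and 1 in kidney, in the potassium channel gene Kcnma1, and limma called none of the 4, with adjusted p of 0.281 to 0.765.

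The sites most like the leading Cacna1d and Kcna1 sites were looked for by the root mean square difference of group levels over the covered groups. The closest by this rule, an intergenic position on chromosome 5 for Cacna1d Ile to Met (0.0726 percentage points over 9 groups) and a position of uc007hbj.1 on chromosome 10 for Kcna1 Ile to Val (0.0537 over 11 groups), were not covered in brain, so they only share levels near 0 elsewhere. Among sites covered in both brain groups, a limit added after these values were seen, the closest to Cacna1d Ile to Met was an intronic position of Taz, with 39.6% in WT and 30.9% in E861A brain (2.55 percentage points over 13 groups). The closest to Kcna1 Ile to Val was a 3′ UTR position of Cdk7, with 41.7% and 44.4% (4.07 over 15 groups). Unc80 Ser to Gly was covered in 2 groups, too few to rank.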

How the data were processed

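mmPCR-seq was done by the authors on 48 libraries, and for each they deposited 1 table of 48715 positions that gives 2 counts, of covering and of edited reads, and their ratio as a fraction. Per the labels, STAR and SAMtools were used with mm9; versions are not given in the sources used here. Levels were recomputed from both counts and differed from the deposited fraction by at most 0.0005. Replicates with 100 reads or fewer were treated as missing. Edited sites (pooled level above 0.01) were tested with limma 3.58.1 (lmFit, and eBayes with the trend option, R 4.3.3) after the levels were turned into log2((level + 0.01)/(1 - level + 0.01)). P-values were adjusted by Benjamini and Hochberg over every site in a comparison, and 0.05 was the threshold. The script was tested on simulated data. Alternatives changed the read minimum, the limit, the offset, the scale, the model and the libraries.

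Sequences were read with samtools 1.23.1 and folded with RNAfold 2.7.2. The 3 genes and the list of channel genes were chosen with earlier results of these data known. Named are all sites covered and edited in at least 1 tissue, with values by library where a group reached 5%; other named sites were chosen after their values were seen. Same-numbered replicates did not deviate together (correlations of -0.12 to 0.24), so they were not paired. The number of mice, 3 per group, limits the precision. Tables of expression values in the series were not used here.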

Additional observations from a re-analysis of the deposited data

Results flagged for a closer look

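Kcna1 Ile to Val in liver WT replicate 3 was at 36.3% of 933 reads, in a tissue where the site entered no genotype test because E861A had 1 covered library. The other liver libraries over 100 reads were at 0.142% to 0.184%. It was picked because it is a signal in data that no genotype comparison made here used. The paper lists Kcna1 in the liver among its examples of conserved sites that lost editing in E861A tissue, which it reads as ADAR1-dependent.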

How the results depend on the processing

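Over 44 results at single sites, 825 alternative values were computed: 720 kept their direction and side of the threshold, 80 fell short of it, 14 newly passed it and 11 changed sign. The genotype count in brain, 0 of 7, was 1 under the study's criterion. The count lower than brain in WT was 14, and the limit on the level had set its direction. Without the limit it was 5 (2.84% of the tests on covered positions). With the limit kept, it was 8 with an offset of 0.05, 21 with all 48 libraries, 0 untransformed and 7 in the quasi-binomial model. With 1 replicate left out it was 1 to 14. The count is no result about the 3 genes in these settings, where the share of all sites called is not set beside it. With the replicate number as a block it was 0, and the genotype and interaction counts of the 3 genes stayed at 0; over all sites the block took the genotype calls from 66 to 0 in liver and 91 to 62 in kidney, the interaction calls to 1 for spleen and 0 for each other tissue, and the calls lower than WT brain to 18 in spleen and 0 in each other tissue. The numbers do not pair the mice. The interaction count, 0 of 26, ran from 0 to 6 with 1 replicate left out. It was 6 without brain WT replicate 3, where the share of all sites called was 2.29% to 7.40%. All 6 of these calls were at the Unc80 position 66718450, in contrasts that share the brain libraries. Cacna1d Tyr to Cys in brain (0.05, log2) ran from -0.21 to 0.29 with 1 replicate left out, -0.04 without E861A replicate 1. Cacna1d Ile to Met (-0.00) became 0.0222 percentage points untransformed, in the quasi-binomial model and by the study's criterion, and ran from -0.16 to 0.16 with 1 replicate left out, 0.04 without WT replicate 2. With an offset of 0.001 the Kcna1 interaction became 0.35 in thymus (from -0.55) and 0.22 in kidney (from -0.65), and in small intestine (0.97) it became -1.98 percentage points untransformed and ran from -0.91 (without E861A replicate 3) to 1.94 with 1 replicate left out. The cause of these changes was not tested. Positions at 100 reads or fewer, Unc80 recoding outside the brain among them, could not be assessed.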
